A study of Homo sapiens with 15 samples.

Results

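SAMD9 with SAMD9L, DDX60 with DDX60L, HERC5 with HERC6 and FAM111A with FAM111B are 4 pairs of paralogous genes whose members lie next to each other on a chromosome and whose products act against viruses or are close relatives of such proteins. These 8 genes, of 20037 protein-coding genes on the assembled chromosomes, were chosen by name from earlier results on the same peak lists, so the presence of peaks at them was what chose them and is given as a description only. Their peaks were taken from 2 ChIP-seq peak lists of the chromodomain protein MPP8, counting each peak in a gene body or within 10 kb of it (hg38). The study used K-562 cells, an established line from a chronic myeloid leukaemia. The list from cells without TASOR (TASOR KO) held 427 peaks, and the list from cells without its paralog TASOR2 (TASOR2 KO) held 264 peaks. Each knockout was made with CRISPR/Cas9 plasmids in cells that were sorted and grown as single colonies, so each genotype is a clonal line, and each is represented by 1 library. Both libraries were precipitated with the same antibody, to MPP8. The protocol, written once for all samples, also describes lentiviral vectors with puromycin resistance, empty or with FLAG-tagged transgenes, and no transgene is named for these libraries. The other 13 samples of the series, unedited cells and input chromatin among them, were not analysed here, so no peak below can be compared with its level when both paralogs are present.

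MPP8 belongs to the human silencing hub, or HUSH, in which TASOR is the scaffold, periphilin binds RNA, and MPP8 reads methylated lysine 9 of histone H3. The complex is best known for repressing LINE-1 elements, other transposons and newly integrated DNA. Interferons switch on antiviral genes through STAT and IRF transcription factors, many of which act at a short promoter sequence called the interferon-stimulated response element (ISRE). Type II interferon acts mainly through another, the gamma-activated site (GAS).

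In TASOR KO cells 6 of the 8 genes carried an MPP8 peak, each with a peak of its own that covered the annotated start of the gene: SAMD9, SAMD9L, DDX60, DDX60L, HERC6 and FAM111A. HERC5 and FAM111B carried none. In both the SAMD9 and the DDX60 pair each member had a peak, and in the other pairs 1 member had one. In TASOR2 KO cells 0 of the 8 genes carried a peak. Over all protein-coding genes 1.34% had a TASOR KO peak in the body or within 10 kb (268 genes), 1.08% had one in the body, and 1.18% had a TASOR2 KO peak in the body or within 10 kb (236 genes). Nothing is read from the TASOR KO count, because the genes were chosen on it, and 0 of 8 genes lies near the TASOR2 KO background. With 1 library for each genotype there was no replicate error, and no test was made. The lists carry no read totals, and the sequencing depth of either library is unknown.

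**Figure D1:**
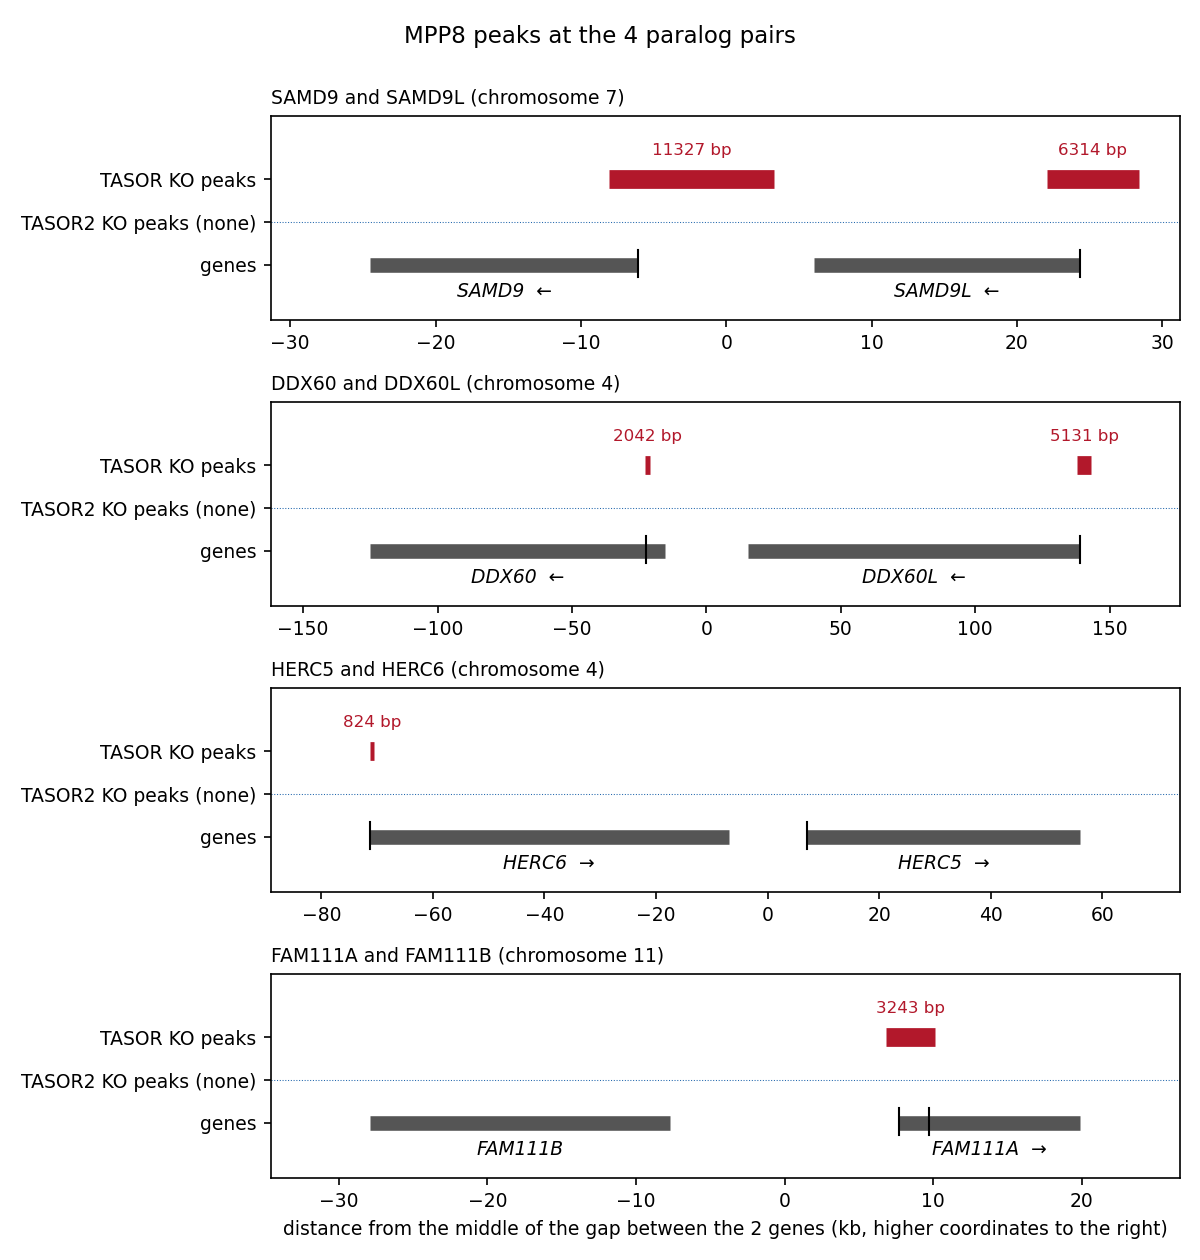
MPP8 peaks at the 4 pairs. Each panel shows both genes as grey bars on a scale of kb from the middle of the gap between them, with black ticks at annotated starts, arrows for the direction of transcription where the promoter table gives it, and TASOR KO peaks in red with their widths in bp. The 6 red peaks each cover a tick, and the TASOR2 KO rows are empty.

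SAMD9 and SAMD9L encode large cytoplasmic proteins that block the replication of poxviruses and restrain cell growth. SAMD9 (gene ID 54809) lies on chromosome 7 at 93099518 to 93117979 and SAMD9L (gene ID 219285) at 93130056 to 93148385, both on the minus strand, with 12.1 kb and no annotated gene between them. The SAMD9 peak ran from 93115968 to 93127294, a width of 11327 bp, which made it the sixth widest of the 427. The SAMD9L peak ran from 93146082 to 93152395, a width of 6314 bp and the 30th widest. Both peaks thus sat across the start of their gene and reached out of the gene body. The SAMD9 peak had 9315 bp before the start, which is 82.2% of its width and extends over most of the gap towards SAMD9L. The SAMD9L peak had 4010 bp before its start, or 63.5%. On the gene side the peaks were alike, with 2012 bp after the start of SAMD9 and 2304 bp after that of SAMD9L, a difference of -292 bp, SAMD9 minus SAMD9L. The difference of 5013 bp in width came from the sequence before the start, where SAMD9 exceeded SAMD9L by 5305 bp. Fold enrichment, the authors' own value for each peak over its control or local background, was 4.39 at SAMD9 and 3.39 at SAMD9L. The authors' −log10 q was 2.80 at SAMD9, rank 58 of 427, and 0.868 at SAMD9L, rank 194. The SAMD9L peak, with a q of 0.136, was the only one of the 6 above a q of 0.05. The SAMD9 peak ended 2761 bp below the lower end of SAMD9L, so by the 10 kb rule it counts for both genes, and only SAMD9L met a second peak in this way. The promoter windows, from 150 bases before to 50 after the start (RefSeq, GRCh38.p14, minus strand, read 5′ to 3′), are shown because both starts lie under peaks of different strength. They cover chr7:93117930-93118129 for SAMD9 and chr7:93148336-93148535 for SAMD9L, and capitals mark the ISRE core described further on.
SAMD9: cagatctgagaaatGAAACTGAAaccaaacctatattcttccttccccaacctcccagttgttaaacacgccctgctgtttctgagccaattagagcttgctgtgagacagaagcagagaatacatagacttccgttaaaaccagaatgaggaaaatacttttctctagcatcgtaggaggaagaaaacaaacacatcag
SAMD9L: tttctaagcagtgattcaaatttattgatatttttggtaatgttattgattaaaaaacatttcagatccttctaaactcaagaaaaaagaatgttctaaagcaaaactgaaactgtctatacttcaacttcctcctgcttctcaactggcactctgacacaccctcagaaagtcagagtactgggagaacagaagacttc

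DDX60 and DDX60L encode interferon-induced helicases of the DExD/H-box class, and DDX60 has been linked to signalling by the RNA sensor RIG-I. DDX60 (gene ID 55601) lies on chromosome 4 at 168216294 to 168325979 and DDX60L (gene ID 91351) at 168356735 to 168480492, both on the minus strand. They are the longest genes of the 8, at 110 kb (109686 bp) and 124 kb (123758 bp), with a gap of 30.8 kb. The DDX60 peak ran from 168318384 to 168320425 (2042 bp), with a fold of 6.24, a −log10 q of 6.15 and rank 9. The DDX60L peak ran from 168479315 to 168484445 (5131 bp), with a fold of 5.95, a −log10 q of 5.41 and rank 15. The pair was thus close in enrichment, with a ratio of folds of 1.05, DDX60 over DDX60L, and differed in width, by -3089 bp for DDX60 minus DDX60L, the DDX60 peak being 0.398 times as wide. The DDX60 peak had 1673 bp before the start and 369 bp after it, and the DDX60L peak had 3953 bp before and 1178 bp after. The share before the start was nevertheless alike, 81.9% at DDX60 and 77.0% at DDX60L. The start of DDX60 was read from the promoter table, at 168318752. The gene table extends DDX60 beyond that start, so that by the gene body alone the peak lies wholly inside the gene. Each peak met a small part of a long gene, 1.86% of DDX60 and 0.952% of DDX60L, and the remaining bodies held no peak. These promoter windows (chr4:168318703-168318902 for DDX60 and chr4:168480443-168480642 for DDX60L, minus strand) are shown because they were the most alike of the 3 pairs with both windows in the promoter table. Over the 300-base windows they were identical at 57.3% of aligned positions, against 48.3% for SAMD9 and SAMD9L, 48.6% for HERC5 and HERC6, and 43.1 to 52.6% (median 49.6%) for the 18 combinations of members of different pairs.
DDX60: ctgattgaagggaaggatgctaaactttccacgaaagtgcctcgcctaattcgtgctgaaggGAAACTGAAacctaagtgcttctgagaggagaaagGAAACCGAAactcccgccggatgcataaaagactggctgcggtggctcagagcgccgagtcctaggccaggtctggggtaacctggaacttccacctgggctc
DDX60L: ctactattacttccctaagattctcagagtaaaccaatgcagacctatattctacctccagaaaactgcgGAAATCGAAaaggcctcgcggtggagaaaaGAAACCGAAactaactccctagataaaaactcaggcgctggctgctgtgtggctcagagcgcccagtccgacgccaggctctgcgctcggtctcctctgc

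HERC5 and HERC6 encode ubiquitin ligases of the HERC family. HERC5 is the main ligase that attaches the ubiquitin-like protein ISG15 in human cells, a role held by the HERC6 protein in mice. HERC5 (gene ID 51191) lies on chromosome 4 at 88457119 to 88506163 and HERC6 (gene ID 55008) at 88378852 to 88443097, both on the plus strand and 14021 bp apart. HERC5 had no peak, and the nearest TASOR KO peak to it was the one at the start of HERC6, 77.5 kb (77502 bp) away. The HERC6 peak ran from 88378793 to 88379616. It was the narrowest of the 6, at 824 bp, and stood at place 379 of 427 by width. It was also the strongest by fold, at 6.57, the second highest of the list, with a −log10 q of 7.60 and rank 5. It began 59 bp before the start and had 765 bp, or 92.8% of its width, after it. No other member had so little of its peak before the start. HERC3, a relative whose gene follows HERC5 at 17.7 kb, had 0 peaks within 10 kb in either list. The windows of both starts (chr4:88456969-88457168 for HERC5 and chr4:88378702-88378901 for HERC6, plus strand) are shown because that of the gene without a peak has the ISRE core and that of the gene with one does not.
HERC5: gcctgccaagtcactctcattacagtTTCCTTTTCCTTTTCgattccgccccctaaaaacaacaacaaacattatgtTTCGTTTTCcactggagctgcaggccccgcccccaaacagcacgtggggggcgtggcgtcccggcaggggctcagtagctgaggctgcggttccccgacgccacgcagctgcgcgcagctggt
HERC6: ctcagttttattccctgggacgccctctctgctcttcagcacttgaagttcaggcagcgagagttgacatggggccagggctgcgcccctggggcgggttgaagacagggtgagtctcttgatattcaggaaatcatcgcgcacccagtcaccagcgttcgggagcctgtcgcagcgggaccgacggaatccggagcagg

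FAM111A and FAM111B encode related proteases. FAM111A restricts certain viruses and acts at the replication fork, and FAM111B is known chiefly from an inherited disorder of skin, tendon and lung. FAM111A (gene ID 63901) lies on chromosome 11 at 59142856 to 59155039 and FAM111B (gene ID 374393) at 59107237 to 59127412, with 15.4 kb between them. FAM111B had no peak, and its nearest TASOR KO peak, that of FAM111A, lay 14.6 kb (14572 bp) away, outside the 10 kb window. The FAM111A peak ran from 59141985 to 59145227 (3243 bp). It ranked 4 of 427 with a −log10 q of 7.90, the highest of the 6, and a fold of 6.40. The promoter table gives FAM111A 2 starts, at 59142856 and 59144862, and the peak covered both. It had 871 bp before the first start and 2372 bp, or 73.1%, after it, and met 19.5% of this gene of 12.2 kb, more than at any other member. The peak also covered the start of FAM111A-DT, a noncoding RNA gene that is transcribed the other way from a start 48 bp below the first start of FAM111A, and a pseudogene, LOC100422399. The peak can therefore not be assigned to 1 of these genes. The window of the first FAM111A start (chr11:59142706-59142905, plus strand) is shown because its ISRE core lies after the start.
FAM111A: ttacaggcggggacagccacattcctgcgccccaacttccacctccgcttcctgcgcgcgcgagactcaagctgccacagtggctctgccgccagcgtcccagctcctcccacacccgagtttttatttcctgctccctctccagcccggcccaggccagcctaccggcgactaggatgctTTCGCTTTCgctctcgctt

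Aligned on the starts and read in the direction of transcription, the 6 peaks differed in the side on which they lay. At SAMD9, SAMD9L, DDX60 and DDX60L, all on the minus strand, 82.2, 63.5, 81.9 and 77.0% of the peak lay before the start. At HERC6 and FAM111A, both on the plus strand, 7.16 and 26.9% did, for FAM111A by its first start. By its second start the side turned, with 88.7% of the FAM111A peak (2877 bp) before that start and 366 bp after it. The peak centres lay at -3652, -853.5, -652.5 and -1388 bp from the start at the first 4 genes, negative values being before it, and 352.5 and 750 bp after it at HERC6 and at the first start of FAM111A. In chromosome coordinates all 6 of these centres lay above the start, so the side cannot be told apart from the strand. The DDX60 value rests on the start in the promoter table; from the gene table's end the centre lay 6574.5 bp inside the gene. Over all 80 TASOR KO peaks that covered starts of exactly 1 protein-coding gene the median share before the start was 51.1% (quartiles 30.4 and 69.0%), and 41 of the 80 (51.2%) had more than 50% there. By bases before the start SAMD9 ranked 3 of the 80, SAMD9L 10, DDX60L 12, DDX60 28 and FAM111A 47, while HERC6 ranked 78.

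**Figure D2:**
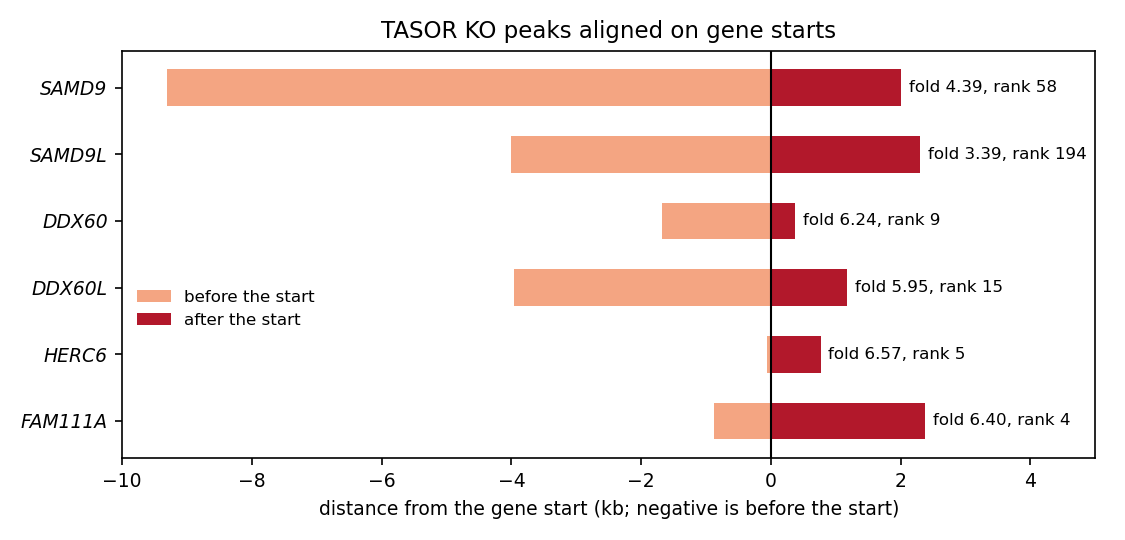
TASOR KO peaks at 6 genes, aligned on the annotated start (0 on the axis, in kb, negative values before the start in the direction of transcription; for FAM111A the first start). The pale part of each bar lies before the start and the dark part after it; fold and rank by −log10 q of 427 peaks are printed beside the bars. The peaks at SAMD9, SAMD9L, DDX60 and DDX60L (minus strand) lie mostly before the start, and those at HERC6 and FAM111A (plus strand) mostly after it.

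Widths at the 6 genes ran from 824 bp at HERC6 to 11327 bp at SAMD9, with a median of 4187 bp, against a median of 1929 bp over all 427 TASOR KO peaks and 2467 bp (quartiles 1221.5 and 4896) over the 90 that covered the start of a protein-coding gene. Folds ran from 3.39 to 6.57 with a median of 6.09, against 3.35 over all peaks and 3.82 over the 90. The widest peak was not the strongest. FAM111A, HERC6, DDX60 and DDX60L held ranks 4, 5, 9 and 15 and were 0.824 to 5.13 kb wide, while SAMD9 and SAMD9L, with the widest peaks of the 6, held ranks 58 and 194. These values belonged to the contrast on which the genes were chosen and are descriptions.

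**Figure D3:**
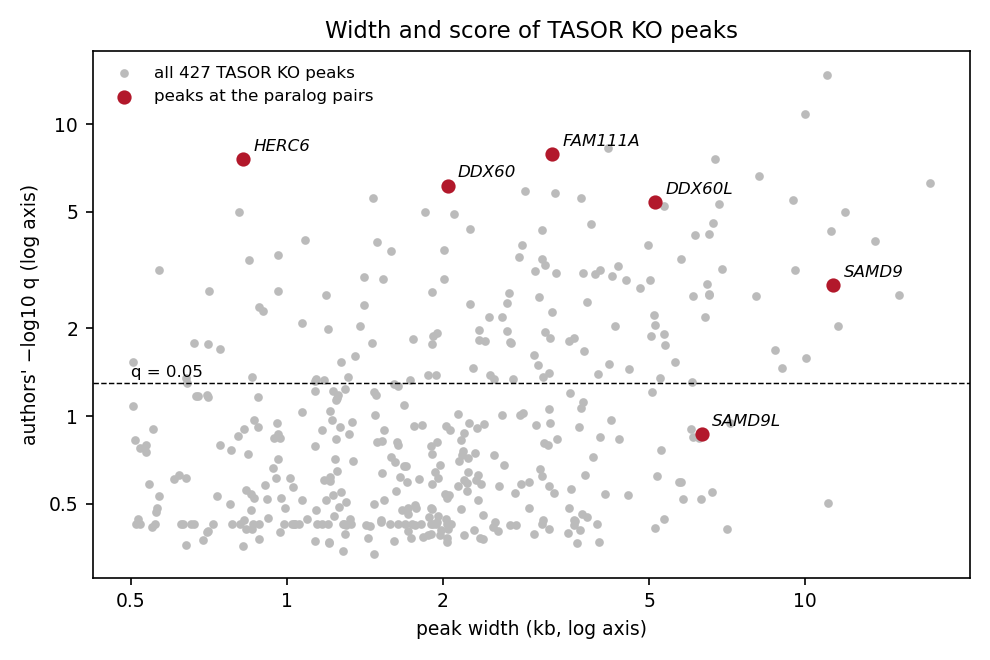
Width against the authors' −log10 q for all 427 TASOR KO peaks (grey) and the 6 peaks at the paralog pairs (red), both axes logarithmic, with a dashed line at a q of 0.05. HERC6 combines a narrow peak of 0.824 kb with a high score, SAMD9 a peak of 11.3 kb with a lower one, and SAMD9L lies below the line.

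TASOR2 KO peaks were far from all 8 genes. The nearest lay 0.906 Mb from SAMD9 and 0.937 Mb from SAMD9L, at 92189343 to 92193383 on chromosome 7, and no member had one within 100 kb. For the other members the nearest lay 17.4 and 17.5 Mb from DDX60 and DDX60L, 40.5 and 40.6 Mb from HERC5 and HERC6, and 9.46 and 9.49 Mb from FAM111A and FAM111B. Chromosome 4 held 14 TASOR KO and 7 TASOR2 KO peaks, chromosome 7 held 90 TASOR KO and 44 TASOR2 KO peaks, and chromosome 11 held 17 TASOR KO and 6 TASOR2 KO peaks. The peak numbers skip values in both lists, which are thus parts of longer ones, and a missing peak cannot be read as absent binding. The peak names carry different tags in the lists, 0.5 in TASOR KO and 0.3 in TASOR2 KO, whose meaning no source used here gives. TASOR KO peaks had a q of up to 0.46 and TASOR2 KO peaks one of up to 0.258, both values lying under the tag of their list, so the TASOR KO list reached weaker peaks, and 138 TASOR KO and 79 TASOR2 KO peaks had a q up to 0.05. Genotype and any difference in how the lists were made cannot be told apart.

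Protein-coding genes beside the pairs carried no peak. The nearest protein-coding genes on either side were CDK6 and HEPACAM2 for the SAMD9 pair, ANXA10 and PALLD for the DDX60 pair, PPM1K and PYURF for the HERC pair, and GLYATL1B and LOC124902601 for the FAM111 pair. All 8 had 0 peaks within 10 kb in either list, at distances from the pair of 12.4 kb (GLYATL1B) to 263 kb (CDK6). By the same rule 1.34% of all protein-coding genes had a TASOR KO peak and 1.18% a TASOR2 KO peak, so 0 of 8 lies near the background. In 0.465% of all 20013 couples of consecutive protein-coding genes, each gene had a TASOR KO peak in the body or within 10 kb, shared or separate. Separate peaks covered a start of each gene in 0.0849% (17 couples). The SAMD9 and DDX60 pairs are among these 17, and they were chosen on those peaks.

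Genes whose strongest TASOR KO peak lay closest in rank by −log10 q to that of a member were found for all 6, with 1 rank between them except at HERC6. They were THADA for FAM111A and, 2 ranks away, for HERC6, ATP23 for DDX60, together with the zinc finger genes ZNF534 and ZNF578, which share a peak, TASOR2 and ZNF485 for DDX60L, the dystrophin gene DMD for SAMD9, and SENP7, which encodes a SUMO protease, for SAMD9L. None of these 8 genes had a TASOR2 KO peak within 10 kb, which lies near the share of 1.18% over all protein-coding genes. At THADA, ZNF578 and TASOR2 the peak covered an annotated start, as at the members. At ATP23, ZNF534, ZNF485 and DMD it did not. The likeness rests on 2 libraries and on score alone.

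Other antiviral genes were compared through lists assembled from general knowledge and with earlier results of these data known. Of 62 genes in other neighbouring antiviral families (IFIT, OAS, GBP, SP100 and the like), 19 had a TASOR KO peak in the body or within 10 kb (30.6%, exact binomial 95% interval 19.6 to 43.7) and 0 had a TASOR2 KO peak (upper bound 5.78%). Over all protein-coding genes the shares were 1.34% and 1.18%, so 0 of 62 lies near the TASOR2 KO background. The strongest lay at the start of TAP2, a gene of the peptide transporter that feeds antigen presentation (fold 4.67, rank 13), and counted also for its neighbours TAP1 and PSMB8. Next came ZC3HAV1, which encodes the zinc finger antiviral protein ZAP (fold 4.56, rank 29), with a peak 1906 bp outside the gene. SP110 and SP140, nuclear body genes that share a peak (fold 5.23, rank 33), followed. The median rank of the 19 peaks in this list was 137, against 12 for the 6 peaks of the paralog pairs, and their median width was 1484 bp, against 4187 bp. The members were chosen on their TASOR KO peaks, so nothing is read from these differences. Neighbours that share a peak are not independent of each other.

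Of 64 other antiviral and interferon-stimulated genes, 7 had a TASOR KO peak (10.9%, 4.51 to 21.2) and 0 had a TASOR2 KO peak (upper bound 5.60%). The shares over all protein-coding genes, 1.34% and 1.18%, apply here and to the lists below, and 0 of 64 lies near the latter. The strongest counted for NMI, which encodes a partner of STAT proteins (fold 4.54, rank 51), CMPK2, a mitochondrial nucleotide kinase gene (fold 4.38, rank 64), and TMEM140 (fold 3.82, rank 80). The peaks of NMI and TMEM140 covered a start, and that of CMPK2 lay 3997 bp outside the gene. PARP12 (rank 140), RSAD2, which encodes the antiviral enzyme viperin (rank 229), and EIF2AK2, which encodes the RNA-activated kinase PKR (rank 346), followed with a q above 0.05, and 3 of the 7 genes had a peak with a q up to 0.05. Of 28 genes of interferon signalling, IRF2 (fold 3.93) was among those with a TASOR KO peak and JAK2 had TASOR2 KO peaks (folds 4.11 and 4.02, q of 0.067 and 0.0847). Of 23 relatives of the members outside the pairs, SAMD3 (fold 3.68) and the helicase gene ASCC3 (fold 3.40) had a TASOR KO peak, both with a q above 0.05, and the helicase gene MTREX had TASOR2 KO peaks (folds 3.74 and 3.84, q of 0.183 and 0.0992). No difference between these lists was tested, and the intervals cover counting error only.

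**Figure D4:**
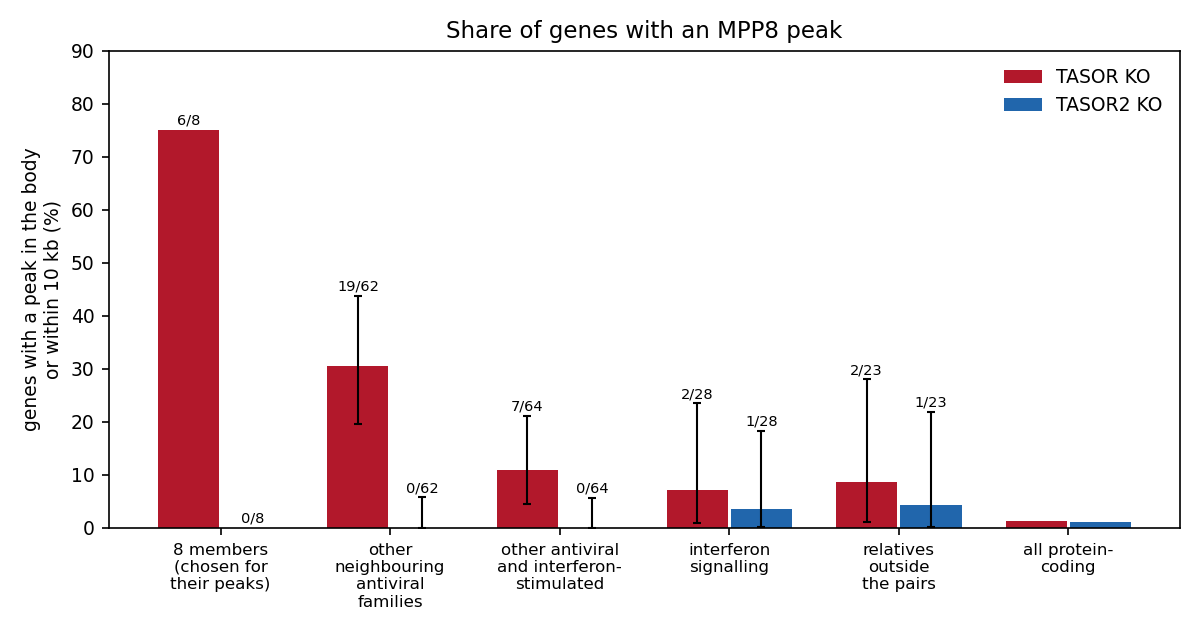
Share of genes with an MPP8 peak in the body or within 10 kb, in TASOR KO (red, left) and TASOR2 KO (blue, right), for the 8 members, 4 gene lists and all 20037 protein-coding genes. Counts stand above the bars and lines are exact binomial 95% intervals, omitted for the members, which were chosen on their peaks, and for all genes. In the first 3 groups TASOR KO has 6 of 8, 19 of 62 and 7 of 64 genes and TASOR2 KO has none. Over all protein-coding genes the shares are 1.34% and 1.18%.

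The position over gene starts set the 2 lists apart. Of the 427 TASOR KO peaks, 90 covered an annotated start of a protein-coding gene (21.1%, exact binomial 95% interval 17.3 to 25.3), against 1 of the 264 TASOR2 KO peaks (0.379%, 0.00959 to 2.09), at the visual pigment gene OPN1SW. When only a q up to 0.05 counted, 39.9% of TASOR KO peaks (55 of 138) and 1.27% of TASOR2 KO peaks (1 of 79) covered a start. Counted as genes, 0.625% of the 15843 protein-coding genes in the promoter table had a start under a TASOR KO peak (99 genes) and 0.00631% under a TASOR2 KO peak. Of the 7 members in the table, 6 had a start under a TASOR KO peak, the 6 on which the choice of genes rested. Among the 221 genes of the table with a TASOR KO peak in the body or within 10 kb, 99 had one over a start (44.8%, 38.1 to 51.6). In the list of other neighbouring antiviral families, 11 of the 15 such genes did, and among other antiviral and interferon-stimulated genes 6 of 7 did.

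Sequence at the starts was not used to choose the genes. They were chosen as antiviral genes, however, which interferons can switch on through the ISRE, so matches at them are not independent of the choice. The ISRE core was searched as GAAANNGAA and the GAS as TTCNNNGAA, both on either strand, and the TATA box as TATAAA on either strand, in windows of 300 bases (250 before to 50 after the start). Positions below count the first base of the gene as 0. SAMD9 had 1 ISRE core at -136 to -128. DDX60 had 2, at -88 to -80 and -53 to -45, and DDX60L had 2, at -80 to -72 and -50 to -42, so that the paralogs matched in number and nearly in place. FAM111A had 1, at 31 to 39, on the opposite strand at its first start. SAMD9L and HERC6 had none in their windows, although both starts lay under a peak. Most of these peaks lay outside the windows and was not searched. At HERC6 765 of the 824 bp lay after the start, and the SAMD9L peak was 6314 bp wide. HERC5, without a peak, had 3 on the opposite strand, at -124 to -116, -118 to -110 and -73 to -65, of which the first 2 overlap each other. FAM111B, also without a peak, had no promoter window and was not searched. A comparison of members with and without a peak therefore rests on HERC5 and HERC6 alone. There the ISRE core lay in the window of the member without a peak. A GAS occurred only at DDX60 (-124 to -116) and a TATAAA match only at the second FAM111A start (-222 to -217).

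CG dinucleotides in the same windows numbered 4 at SAMD9 and 0 at SAMD9L, 11 at DDX60 and 12 at DDX60L, 21 at HERC5 and 16 at HERC6, and 21 and 17 at the starts of FAM111A. The median over all 22199 starts of protein-coding genes was 21 (quartiles 7 and 31). Both SAMD9 genes were poor in CG, and the DDX60 genes differed by 1, while HERC5 had as many as the first start of FAM111A and more than HERC6. At the 106 starts under a TASOR KO peak with the members left out, the median was 22 (quartiles 16.25 and 26). Of these, 6.6% had 4 CG or fewer, against 18.2% of all starts. Among the members' peaks, fold enrichment was lowest at the SAMD9 genes, which are neighbours. Whether the counts bear on the peaks was not tested.

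Across the genome the ISRE core was more common at starts under a TASOR KO peak. Leaving the members out, 29 of 106 such starts had it (27.4%, 19.1 to 36.9), against 1575 of all 22199 starts (7.09%, 6.76 to 7.44). Without the genes of the antiviral and interferon lists as well, the share was 17.4% (15 of 86 starts). For the GAS the shares were 15.1% (8.88 to 23.4) and 6.79% (6.47 to 7.13), and for the TATA box 5.66% (2.11 to 11.9) and 9.47% (9.09 to 9.86). Seen from the motif, 33 of the 1575 starts with the ISRE core lay under a TASOR KO peak (2.10%, 1.45 to 2.93), members included, against 80 of the 20624 starts without it (0.388%, 0.308 to 0.483). Under a TASOR2 KO peak lay 0 of the 1575 and 1 of the 20624 (0.00485%), too few to compare. Starts of 1 gene can share a peak and a motif and are not independent. With 1 start per gene and the members left out, the ISRE core shares were 20.5% (18 of 88) under a TASOR KO peak and 7.07% (1119 of 15836) over all genes. A match is a stretch of letters, and whether a factor binds there was not measured.

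**Figure D5:**
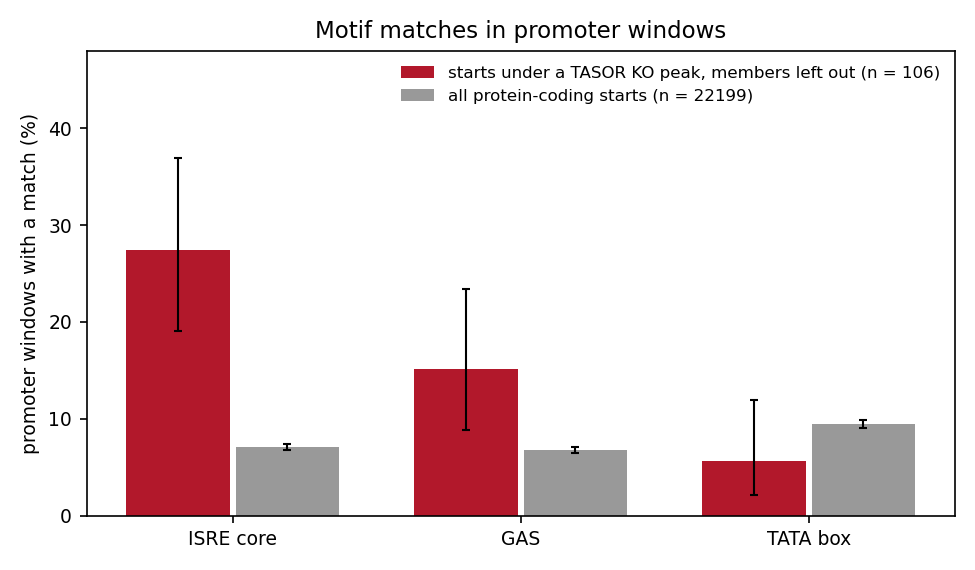
Share of 300-base promoter windows with a match to the ISRE core, the GAS or the TATA box, at starts under a TASOR KO peak with the members left out (red, 106 starts) and at all protein-coding starts (grey, 22199 starts). Lines are exact binomial 95% intervals. The ISRE core stands at 27.4% against 7.09%, the GAS at 15.1% against 6.79%, and the intervals of the TATA box overlap.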

How the data were processed

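MPP8 ChIP-seq peak lists of 2 of the 15 samples were used, 1 library each, grouped by title. The submitters' processing notes name MACS2, Bowtie2 2.3.5.1 and deepTools, and the builds hg38 and mm9, without saying which control, cut-off or spike-in scaling the peaks had. The lists have no header and follow the column order of MACS2 broad peaks, from which the deposited score, fold (a ratio), −log10 p and −log10 q were read. Each is the authors' own value per peak, and peaks were ranked within a list by −log10 q. Per the labels' protocols, micrococcal nuclease and then sonication cut the chromatin.

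Overlap meant 1 bp or more, and coordinates are 1-based. Genes came from a RefSeq table (GRCh38.p14), and strands, starts and sequences from a RefSeq promoter table, which matched 7 of the 8 members. No protein sequences were used, so the planned protein comparison was not made. Promoters were aligned globally (match 1, mismatch -1, gap opening -2, extension -0.5) with Biopython 1.88. The overlap step was tested on simulated data. The genes and lists were chosen with earlier results of these data known. Genes named beside the members were their neighbours, HERC3, the closest by rank, and up to 6 of each list by score; OPN1SW, JAK2 and MTREX were named after their values were seen. A result on 1 gene of interferon signalling is not reported here. Scripts ran in Python 3.11.15 with scipy 1.17.1 for intervals, pandas 2.3.3, numpy 2.4.6 and matplotlib 3.10.9.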

Additional observations from a re-analysis of the deposited data

How the results depend on the processing

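Of 72 alternative values over 18 results, 55 stayed the same or close to the value reported, 8 moved and 9 changed sign. The count of 6 members with a TASOR KO peak was 7 within 25 kb, where FAM111B met the FAM111A peak, and 6 under the other alternatives; limited to a q of 0.05 or less, SAMD9L counted through the SAMD9 peak alone. The TASOR2 KO count was 0 throughout. The width difference of SAMD9 minus SAMD9L was 0 bp by the strongest or by the widest peak within 10 kb and -6314 bp by summed width, because the SAMD9 peak then counts for both genes. The DDX60 peak centre lay 6574.5 bp inside the gene when the gene table's end was taken as the start, and the FAM111A centre at -1256 bp from its second start. The nearest edge, by construction on the other side of the start from the centre, lay at 2011 bp for SAMD9, 2303 for SAMD9L, 368 for DDX60, 1177 for DDX60L, -59 for HERC6 and -871 for FAM111A. At a q up to 0.05, the other antiviral and interferon-stimulated genes numbered 3 and the relatives 0; in the higher-scoring part of the list, the antiviral and interferon-stimulated genes numbered 4. The share of TASOR KO peaks over a start was 39.9% at that q and 32.4% in the higher-scoring part, and that of TASOR2 KO peaks 1.27% and 0.758%. The ISRE core share of 27.4% was 20.5% with 1 start per gene, 22.2% at a q up to 0.05 and 17.4% without the antiviral and interferon lists. Alternatives on starts (DDX60 and FAM111A included) and motifs were chosen after seeing the data. No paired analysis was possible because there was 1 library of each genotype. Unknown depth limits every absence of a peak.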

Other observations

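Read with strand, the lists differed in which end of genes they met. Within 1 kb of the far end of a protein-coding gene lay 15 of 427 TASOR KO peaks (3.51%, exact binomial 95% interval 1.98 to 5.73), 10 of them at ZNF genes and 7 also within 1 kb of a start, and 31 of 264 TASOR2 KO peaks (11.7%, 8.12 to 16.3), 21 of them at ZNF genes. Within 1 kb of a start lay 103 TASOR KO peaks (24.1%, 20.1 to 28.5) and 1 TASOR2 KO peak (0.379%, 0.00959 to 2.09). No peak of the paralog pairs lay within 1 kb of the far end of a member. From each gene's own peak to its far end there were 9.81 kb at FAM111A and 123 kb at DDX60L, with the other 4 between. The SAMD9 peak ended closer to a far end, 2761 bp from that of SAMD9L. The gene table gives 1 far end for each gene, and no source used here says whether the deposited lists were filtered by position.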
